A study of Mus musculus with 6 samples.

Results

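PU.1, an ETS-family transcription factor that macrophages need for their identity, had many peaks without a called peak of either enhancer-associated feature measured beside it. The sites described here carried a called PU.1 peak both before and after stimulation. They had no called peak of H3K4me1 in untreated cells, its only measured state, and none of p300 in either state. They numbered 25441 of 87958 merged PU.1 sites, and of 58665 sites with a PU.1 peak in both lists they made up 43.4% (exact 95% interval 43.0 to 43.8). They are called unmarked stable sites below, where unmarked refers to called peaks only. All of them were chosen by the authors' peak calls, with overlap by at least 1 bp on chromosomes 1 to 19 and X, so that the presence of PU.1 and the absence of the other peaks are not findings.

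PU.1 binds a purine-rich motif with a GGAA core and can bind in closed chromatin. At many of its sites in macrophages it works with other factors to open chromatin, after which the flanking nucleosomes gain mono-methylation of histone H3 at lysine 4 (H3K4me1), a mark of primed and active enhancers. p300 is an acetyltransferase recruited to active enhancers. A PU.1 site with neither peak is therefore a bound site without these usual companions at the level a peak caller detects, and active promoters can also have little H3K4me1 at the start site itself.

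The cells were primary macrophages grown for 7 days from bone marrow of female Fvb mice, in medium conditioned by L929 cells. They were left untreated or received lipopolysaccharide (LPS, a bacterial cell wall component) at 10 ng/ml for 2 h. PU.1 was measured by chromatin immunoprecipitation and sequencing in both states with 1 library each, p300 in both states with 2 biological replicates each, and H3K4me1 and input DNA in untreated cells with 1 library each. No animal, gene mutation or transgene is distinguished in the labels, and how many mice were pooled is not given in the sources used here. Libraries held 5744811 to 7828655 aligned reads, and between 5503587 and 6428281 were left on the chromosomes used once reads with the same start and strand had been counted once. Macrophage identity was not checked here, since no expression was measured. A difference between PU.1 libraries compares those libraries and not the conditions, and intervals cover counting error only. Fewer cells with a bound site and weaker binding in each cell cannot be told apart.

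Unmarked stable sites were the weaker part of the stable PU.1 sites, but they were not confined to weak ones. The median site held 18 distinct PU.1 reads in the untreated library (quartiles 12 and 33) and 19 in the LPS library (12 and 33). Stable sites with an H3K4me1 peak and no p300 peak, numbering 23959, had medians of 41 and 38 reads, and the 7346 with both had 80 and 81. Unmarked sites were also narrower, with a median width of 405 bp against 539 bp and 702 bp. The share of stable sites that were unmarked fell with the number of PU.1 reads, counted over both libraries together. It was 88.0% (86.9 to 89.1) below 20 reads, 69.55% (68.8 to 70.3) from 20 to 39, 43.9% (43.1 to 44.6) from 40 to 79, 26.0% (25.3 to 26.8) from 80 to 159, 13.5% (12.8 to 14.3) from 160 to 319 and 4.24% (3.44 to 5.16) from 320 upwards. A wider site can more easily overlap a peak by 1 bp, and the part of width in these shares was not tested. Among sites with 40 to 79 reads the unmarked share was 55.9% in the narrowest and 34.4% in the widest of 3 width groups of about equal size. With more reads the share did not fall steadily with width. From narrow to wide it was 33.5%, 21.6% and 22.9% at 80 to 159 reads. It was 18.4%, 9.88% and 12.2% at 160 to 319, and 4.685%, 3.21% and 4.83% from 320 upwards.

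**Figure D1:**
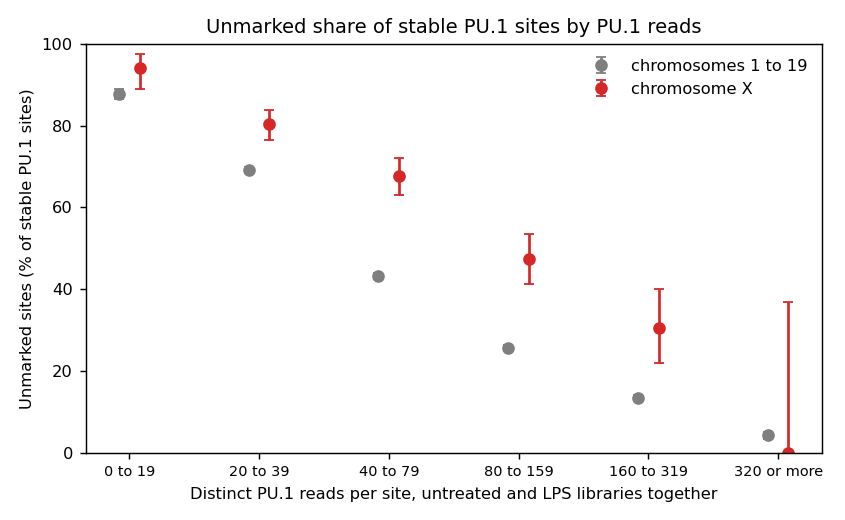
Share of stable PU.1 sites that had no H3K4me1 or p300 peak (y axis, percent), by distinct PU.1 reads in both libraries together (x axis), for chromosomes 1 to 19 and for X; bars are exact 95% intervals. On chromosomes 1 to 19 the share falls from 87.8% to 4.25%, and X lies above them in each group below 320 reads.

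A number of unmarked sites held many PU.1 reads. In all, 1168 (4.59%) held at least 160 and 95 at least 320. Of these, 914 (78.3%) and 89 exceeded input at least 5-fold by the interval in each PU.1 library, and some of the others were high in input as well. The site with the most reads among those whose PU.1 signal exceeded input at least 5-fold by its interval in each library was chr2:22628867-22630774 on the mm9 build. It had 448 untreated and 467 LPS PU.1 reads against 25 input reads. H3K4me1 had 27 reads there. The p300 counts were 19 and 45 without and 15 and 27 with LPS. The nearest H3K4me1 peaks lay 1402 and 1670 bp away on its sides. The H3K4me1 to input ratio in this site was 1.07 (0.599 to 1.93) when libraries were scaled to all their distinct reads, and 2.32 (1.296 to 4.17) when they were scaled to reads outside all peaks. This second scaling multiplies each H3K4me1 to input ratio by 2.16 and each PU.1 to input ratio by 2.30 (untreated) or 2.15 (LPS), so statements on input below hold for the first scaling unless both are given.

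The next strongest sites under the same requirement held fewer PU.1 reads, between 257 and 301 in each library. At chr10:80596756-80598920 PU.1 had 267 and 301 reads in the untreated and LPS libraries, with 19 input reads and an H3K4me1 peak 221 bp away. The site chr3:89885052-89885929 had 270 and 276 PU.1 reads with 11 input reads. At chr5:137943053-137944545 they were 268 and 266 with 18 input reads, and the nearest H3K4me1 peak was 8003 bp away. At chr15:77670868-77672086 PU.1 had 257 and 275 reads against 16 input and 3 H3K4me1 reads. At each of these 5 sites the interval of the LPS to untreated ratio included 1. Both libraries were high, as the choice of these sites required.

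Strong sites also occurred far from any H3K4me1 peak. Of the 914 sites with at least 160 PU.1 reads that exceeded input 5-fold, 272 (29.8%) lay more than 10 kb from the nearest one, and without the input requirement 309 of 1168 did. This distance was exceeded by 28.4% of all PU.1 sites and by 50.0% of all unmarked stable sites. Among the latter the share fell from 69.1% below 20 PU.1 reads to 23.2% from 320 upwards, so strong ones were less often this far away. The examples given next are 3 of the 5 strongest of this kind above input, picked after the values were seen. At chr3:142056842-142058372 PU.1 had 247 untreated and 279 LPS reads, with 14 input and 9 H3K4me1 reads, and the nearest H3K4me1 peak lay 33885 bp away. At chr9:104875065-104875551 PU.1 had 222 untreated and 209 LPS reads in 486 bp, against 2 input reads, a scaled ratio to input of 115 (31.55 to 958) in untreated cells. H3K4me1 had 5 reads in this site, p300 had 4 and 9 reads before and 5 and 5 after LPS, and the nearest H3K4me1 peak lay 60207 bp away. At chr7:112839283-112839930 PU.1 had 246 and 251 reads with 5 input and 7 H3K4me1 reads, and the nearest H3K4me1 peak was 43706 bp away. The authors' scores of this site, which are 10 times the -log10 p-value of the peak, were 1319 untreated and 1251 after LPS, against medians of 119 and 116 over unmarked sites.

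Some strong sites held no H3K4me1 read. At chr17:71965171-71966457 PU.1 had 235 and 255 reads and input 10, and H3K4me1 had 0, where a count of 0 allows up to 3 reads. At chr16:36874441-36875387 the PU.1 counts were 174 and 182 with 12 input reads and again 0 H3K4me1 reads. Of the 1168 sites with at least 160 PU.1 reads, 61 had no H3K4me1 read inside the site (45 of the 914 above input). Among all unmarked stable sites 4475 (17.6%) had none, against 14.0% of all PU.1 sites and 8.02% of all stable ones. The share was 33.3% and 37.95% at unmarked sites in the untreated or the LPS list only. The median member held 3 H3K4me1 and 2 input reads inside the site.

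PU.1 at most unmarked sites differed by less than 2-fold between the libraries, as it did at PU.1 sites in general. Summed over all members, the untreated library had 689862 and the LPS library 699663 reads, a ratio of 0.974 after scaling to library size (0.971 to 0.978). Of 11905 members with at least 40 PU.1 reads, 95.6% had a ratio between 0.5 and 2, against 94.1% of all PU.1 sites with that many reads and 95.8% of stable sites with H3K4me1 and no p300. Of the 1168 with at least 160 reads 1166 did. The exact interval lay beyond 2-fold higher at 22 members (0.185%, 0.116 to 0.280) and beyond 2-fold lower at 2 (0.0168%, 0.00203 to 0.0607). Over all 42939 PU.1 sites with at least 40 reads these shares were 0.475% and 0.0769%. A peak in both lists was required of the members, which removes many sites with large ratios, so nothing is read from the difference. The counts moved with the processing: 39 higher and 8 lower with repeated reads kept, and 13 and 6 when libraries were scaled to reads outside peaks.

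**Figure D2:**
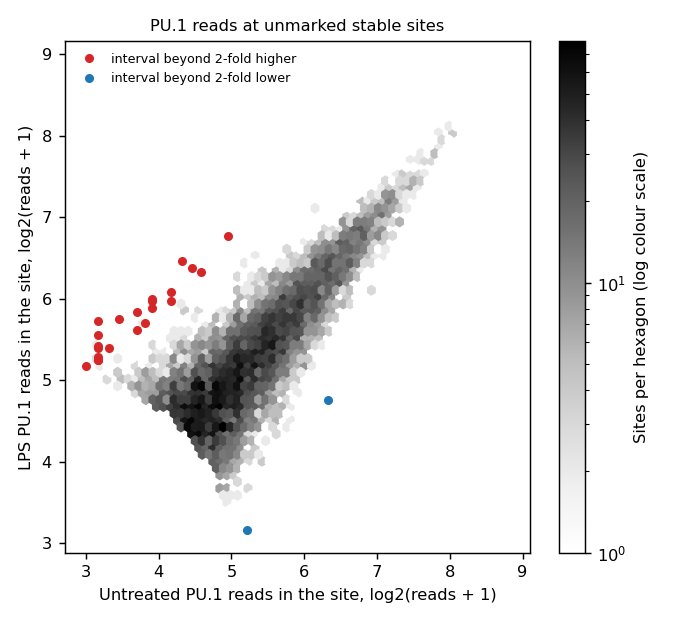
PU.1 reads in the untreated (x axis) and LPS (y axis) libraries at the 11905 unmarked stable sites with at least 40 reads, as log2(reads + 1), with shade for the number of sites. Red points are the 22 sites whose interval lay beyond 2-fold higher and blue points the 2 beyond 2-fold lower; all other sites are in grey along the diagonal.

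The 22 rising sites were moderate in strength. The 3 with the highest lower bounds began at low untreated counts. At chr6:53441147-53441830 PU.1 had 8 untreated and 52 LPS reads, a ratio of 6.25 (2.95 to 15.2). At chr6:99143743-99144176 it had 19 and 87 reads (4.40, 2.66 to 7.66), and at chr10:116343725-116344367 it had 8 and 46 (5.52, 2.58 to 13.55). Over the 22 sites the ratio ran from 3.30 to 6.25. Although none had a p300 peak, p300 reads summed over these sites were 40 and 50 in the untreated replicates 1 and 2 and 68 and 128 after LPS. Scaled to library size, this is 1.99-fold (1.32 to 3.01) between the replicate 1 libraries and 2.61-fold (1.87 to 3.70) between the replicate 2 libraries. p300 counts were higher after LPS at 12 of the 22 sites (54.5%) in the first and at 20 (90.9%) in the second. Among all members they were higher at 37.9% and 34.9%. All members include those with fewer than 40 PU.1 reads, which could not be among the 22. Over all members the corresponding ratios were 1.18 (1.17 to 1.20) and 0.900 (0.892 to 0.908), which point in opposite directions.

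Falling PU.1 was rarer and its examples were less settled. At chrX:53669438-53669790 the libraries had 36 untreated and 8 LPS reads (ratio 0.213, 0.0857 to 0.467), with an H3K4me1 peak 34 bp from its edge. At chr10:99622382-99623445 there were 79 and 26 reads (0.316, 0.195 to 0.498), with p300 at 8 and 25 reads before and 6 and 8 after LPS. Its interval no longer lay beyond 2-fold with repeated reads kept (0.331, 0.212 to 0.504) or within 250 bp of the centre (0.286, 0.1455 to 0.529). The next lowest upper bound, at chr6:89058366-89058856 with 36 and 9 reads, did not lie beyond 2-fold (0.240, 0.102 to 0.508). It did with repeated reads kept (0.1995, 0.0904 to 0.397) and when scaled to reads outside peaks (0.224, 0.0948 to 0.4735).

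Unmarked sites fell into different surroundings. An H3K4me1 peak lay within 2 kb on each side of 1153 members (4.53%, 4.28 to 4.795), on 1 side of 4780 (18.8%) and on neither side of 19508 (76.7%). More than 10 kb separated 12718 members (50.0%, 49.4 to 50.6) from any H3K4me1 peak, and 2546 were over 100 kb away. The 1919 stable sites with a p300 peak and no H3K4me1 peak lay closer, with 20.7% (18.95 to 22.6) between 2 such peaks and 23.3% beyond 10 kb. Of all PU.1 sites 28.4% lay beyond 10 kb, and of unmarked sites in the untreated or the LPS list only 52.3% and 59.1% did. H3K4me1 peaks covered 2.76% of the span of these chromosomes. Members near an H3K4me1 peak held more PU.1: the median over both libraries was 62 reads within 500 bp of one, 52 between 1 and 2 kb, 32 between 10 and 50 kb and 29 beyond. Members also stood apart from other PU.1 sites, with 12.3% having another PU.1 site centre within 2 kb, against 23.2% of stable sites with H3K4me1 and no p300.

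H3K4me1 reads around members depended on these surroundings. Within 1 kb of the centre the median member had 11 H3K4me1 and 8 input reads, a median log2 ratio to input of 0.31 (quartiles -0.55 and 0.99, with 1 read added to each). At stable sites with an H3K4me1 peak and no p300 the median was 2.13. The interval of the ratio lay above 1 at 4820 members (18.9%, 18.5 to 19.4) against 51.9% of all PU.1 sites, a difference that the rule sets. When scaled to reads outside peaks the members' share was 50.1%. The median log2 ratio was 1.28 among members within 500 bp of an H3K4me1 peak, where the window reaches into that peak, 0.36 between 1 and 2 kb, 0.10 between 10 and 50 kb and -0.20 beyond 50 kb. Scaled to reads outside peaks, the same medians were 2.39, 1.475, 1.22 and 0.91, so their order does not depend on the scaling and the sign of the last does.

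Mean profiles differed in shape as well as in height. At members with H3K4me1 peaks within 2 kb on each side, H3K4me1 density, in reads per 100 bp and site scaled to library size (RPM), was 0.133 at the centre, and highest, at 0.368, about 950 bp away. Density within 250 bp of the centre was 0.655 times (0.636 to 0.674) that between 2 and 5 kb away. At members more than 10 kb from an H3K4me1 peak H3K4me1 was highest at the centre, with 0.119 against 0.0186 at 4 to 5 kb. The central H3K4me1 density was 5.94 times (5.87 to 6.00) the flanks, which hold no H3K4me1 peak by the choice of these members. Against input at the same centres H3K4me1 was 1.41-fold. Input also rose at the centre of these isolated members, from 0.0449 to 0.0889, and its central density was 1.79 times the flanks. The H3K4me1 value of 5.94 divided by this input value was 3.32. A dip between flanking peaks and low values around isolated sites follow in part from how both groups were defined. Among the 1533 isolated members with at least 80 PU.1 reads, central density over the flanks was 6.95 (6.77 to 7.14) for H3K4me1, 2.66 for input, and 58.0 and 53.4 for PU.1 before and after LPS. Against input at the centre H3K4me1 was 1.29-fold there.

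**Figure D3:**
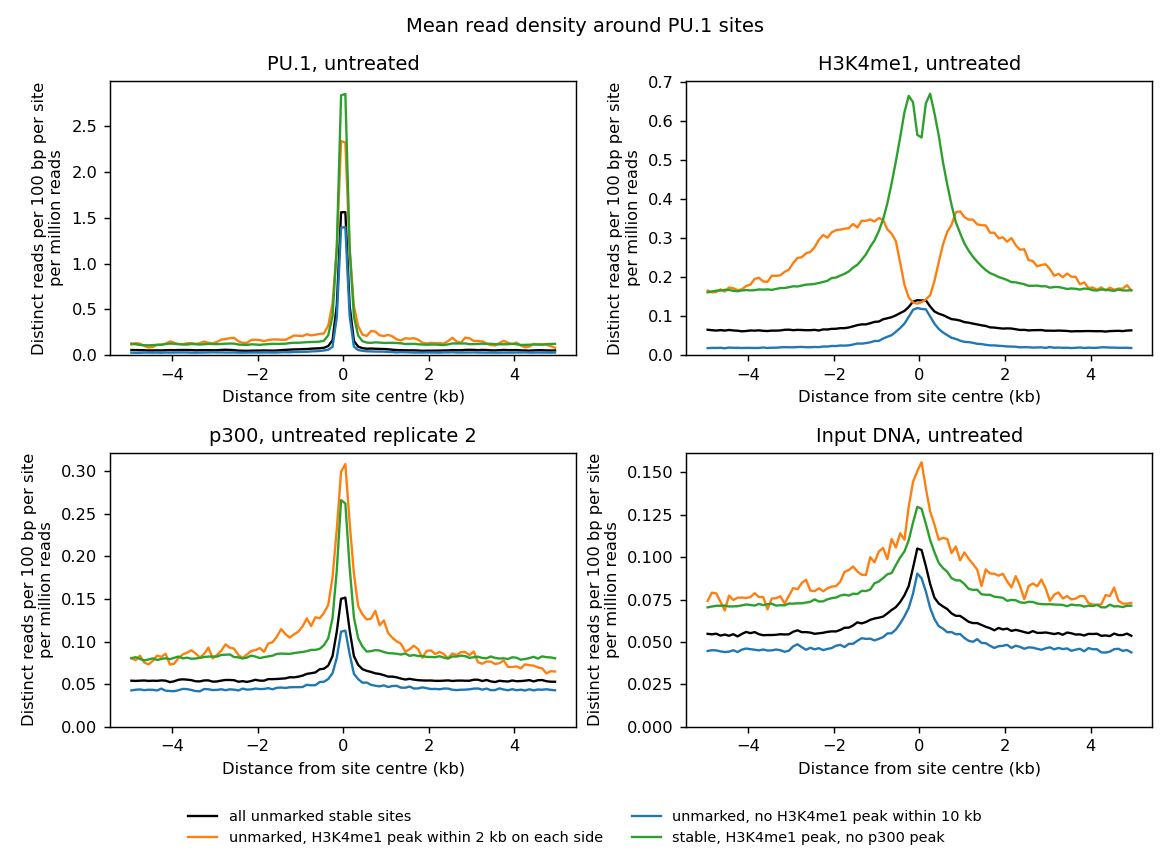
Mean distinct reads per 100 bp and site, as RPM (y axes), against distance from the site centre (x axes, kb) for PU.1, H3K4me1, p300 replicate 2 and input in untreated cells. Lines are all unmarked stable sites, those with H3K4me1 peaks within 2 kb on each side, those with none within 10 kb, and stable sites with H3K4me1 and no p300. H3K4me1 dips to 0.133 at the centre of flanked sites and peaks at the centre of isolated ones.

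The p300 signal at unmarked sites was small, and the replicates did not give the same answer on whether it exceeded input. Density within 250 bp of the centre over that 2 to 5 kb away was 1.43 (1.42 to 1.44) in untreated replicate 1 and 2.28 (2.26 to 2.29) in replicate 2, and 1.66 and 2.05 in LPS replicates 1 and 2. Input had 1.76 (1.74 to 1.77). Both replicate 1 libraries thus lay below input and both replicate 2 libraries above it. Without the members whose PU.1 did not exceed input, a choice that selects for low input, LPS replicate 1 had 1.62 and input 1.59, and the other 3 libraries stayed on their sides. From untreated to LPS the value was higher for replicate 1 and lower for replicate 2. With 2 libraries in each state an exact permutation test cannot go below p = 0.33, and none was made. At stable sites with H3K4me1 and p300 peaks the same measure was 2.34 and 8.69 before LPS and 3.68 and 7.30 after it.

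p300 counts inside members were higher where PU.1 counts were higher, and so were site width and input. Over the 4 libraries the median member had 6 p300 reads with 20 to 39 PU.1 reads, against 10 at stable sites with H3K4me1 and no p300 peak. The medians were 16 and 19 with 80 to 159 PU.1 reads, 25 and 26 with 160 to 319, and 49 and 42 from 320 upwards. From 20 to 39 PU.1 reads to 320 upwards, the median width of members went from 365 to 926 bp, input from 1 to 11 reads and p300 from 6 to 49. Within 250 bp of the centre, p300 over input at members with at least 160 PU.1 reads was 0.692 and 1.56 in the untreated replicates and 0.923 and 1.29 after LPS, against 0.778, 1.27, 0.898 and 1.16 at all members. p300 exceeded input by its interval at 200 members (0.786%) in untreated and 238 (0.935%) in LPS cells, against 7.85% and 7.78% of all PU.1 sites, as the rule requires low p300.

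**Figure D4:**
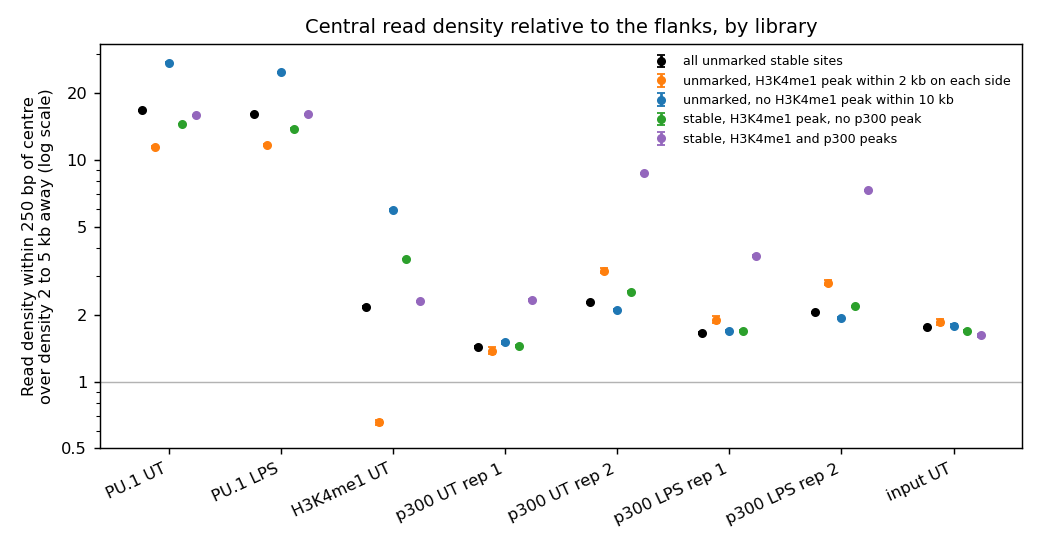
Read density within 250 bp of the site centre over the density 2 to 5 kb away (y axis, log scale) in each library (x axis; UT, untreated; rep, replicate), for 5 groups of stable PU.1 sites. Points are pooled over sites with exact 95% intervals, often smaller than the points. PU.1 exceeds 10 in each group, while p300 at unmarked sites lies around the input value of 1.76.

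Individual members held p300 reads without a peak. Among members with input at or below the members' median, chr6:137359035-137359827 had the most p300, with 6 and 17 reads before and 6 and 19 after LPS against 1 input read. Its PU.1 counts were 117 and 136, and an H3K4me1 peak lay 484 bp away. At chr14:35123368-35124235 p300 had 2 and 23 untreated and 5 and 13 LPS reads with 51 and 42 PU.1 reads, 0 H3K4me1 reads and 2 input reads. At chr11:115264839-115265522 p300 had 10, 13, 5 and 12 reads, and an H3K4me1 peak began 30 bp from the site. At each of these 3 sites most p300 reads came from the replicate 2 libraries.

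The X chromosome held unmarked sites in a larger share than any autosome, a comparison made after the values were seen. Of 1462 stable PU.1 sites on X, 991 (67.8%, 65.3 to 70.2) were unmarked, against 24450 of 57203 (42.7%, 42.3 to 43.2) on chromosomes 1 to 19, where the share ran from 37.8% on chromosome 11 to 48.9% on chromosome 18. The difference was present at similar PU.1 strength. From 40 to 79 reads the share was 67.7% (63.1 to 72.1) on X and 43.2% (42.45 to 44.0) elsewhere, and from 80 to 159 reads 47.3% (41.2 to 53.6) and 25.6% (24.85 to 26.35). From 320 reads upwards X had 8 stable sites and 0 were unmarked, which allows a share of up to 36.9%.

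**Figure D5:**
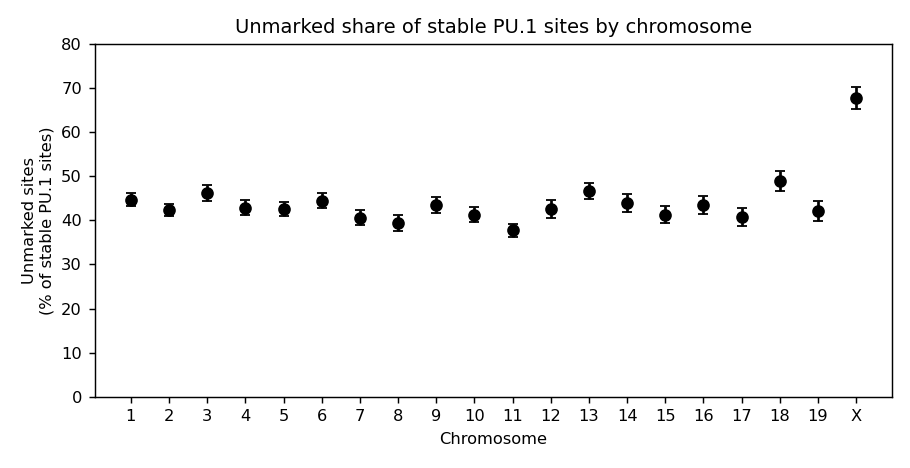
Share of stable PU.1 sites without H3K4me1 or p300 peak (y axis, percent) for each chromosome (x axis); bars are exact 95% intervals. X stands at 67.8%, and chromosomes 1 to 19 lie between 37.8% and 48.9%.

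Each library had fewer reads per Mb on X, and the shortfall differed between them. Relative to the median autosome, X had 0.648 times the input reads, 0.374 and 0.382 times the PU.1 reads of the untreated and LPS libraries and 0.262 times the H3K4me1 reads. X had 7.65 H3K4me1 peaks per Mb and the median autosome 32.9, while stable PU.1 sites numbered 8.78 and 22.8 per Mb and unmarked ones 5.95 and 9.89. The part of this lower depth in the larger unmarked share was not tested. Over all stable PU.1 sites the median log2 H3K4me1 to input ratio within 1 kb was 0.8731 on X and 1.504 on the autosomes. Members alone had medians of 0.34 on X and 0.31 on the autosomes. They were chosen for having no H3K4me1 peak, so nothing is read from how alike these values were. The strongest unmarked sites on X under the same input requirement included chrX:163647955-163649081, with 153 and 163 PU.1 reads and 11 input reads, and the neighbours chrX:131117271-131118352 (146 and 139) and chrX:131119454-131120567 (137 and 151).

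Some members followed each other along chromosomes. Counting stable PU.1 sites in order, unmarked sites formed 11259 runs. Of these, 5604 were single sites and 152 held 10 or more consecutive sites, 22 of them on X. X, with its larger unmarked share, had 275 of the 11259 runs. Runs also arise from the unmarked share alone, and whether they were longer than that share gives was not tested. The longest, chr13:65213259-68709010, had 33 in a row over 3496 kb with a median of 49 PU.1 reads and 4 H3K4me1 peaks in between. On X, chrX:131052763-133264897 had 23 in a row over 2212 kb. These runs were singled out after their values were seen.

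Not each member stood above the input library. PU.1 peaks had been called against a library named random and not against this input, per the file headers. In 4130 members (16.2%, 15.8 to 16.7) the interval of the PU.1 to input ratio reached 1 in at least one of the PU.1 libraries, against 32.1% of all PU.1 sites. The share was lower in the other stable classes, at 5.70% with H3K4me1 alone, 1.70% with both marks and 2.87% with p300 alone, and it was 84.5% and 87.1% at unmarked sites in the untreated or the LPS list only. Scaled to reads outside peaks, it was 0.676% of members. These 4130 had medians of 21 PU.1 and 3 input reads, and most of these calls depended on the scaling. At 211 members (0.829%) the ratio itself was below 2 in both libraries. The member with the most input was chr2:98506323-98507580, with 338 untreated and 325 LPS PU.1 reads beside 409 input reads, a ratio to input of 0.859 (0.741 to 0.994) and 0.793. All libraries were high there, p300 with 423 and 231 untreated and 405 and 213 LPS reads and H3K4me1 with 166. The sites chr2:98502304-98503227 (268 input reads) and chr9:35112626-35113294 (247) were similar. In these 3 sites the authors' PU.1 scores were between 434 and 1312, although PU.1 did not exceed input under the first scaling. Scaled to reads outside peaks, their PU.1 to input ratios lay between 1.70 and 2.25, far under the 40.02 and 42.9 of the strongest site.

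The boundary of the rule separated sites with like H3K4me1 reads within 1 kb, a window that reaches the adjoining peak on either side of the rule. At 3 members an H3K4me1 peak touched the site with 0 bp between them, and they held 34, 61 and 31 H3K4me1 reads within 1 kb (chr2:173411356-173411604, chr3:55157497-55157747 and chr4:137789743-137790137). The 3 stable sites with the shortest overlap, of 1 bp, held 37, 29 and 43 (chr1:189170679-189171154, chr2:155182204-155182688 and chr5:112773012-112773628). PU.1 reads were less alike. In the untreated and LPS libraries the 3 members had 12 and 14, 8 and 10, and 28 and 12. The 3 sites with overlap had 51 and 26, 22 and 23, and 49 and 29. At the score limit of the PU.1 lists, chr7:120656518-120657507 had scores of 52.0 and 50.0 with 39 and 38 reads, and chr5:34338809-34339291 had 50.0 and 74.1 with 13 reads in each library. Weak unmarked sites were less often in both lists: of 13947 unmarked PU.1 sites with 20 to 39 reads 75.4% were in both lists, and of 7779 with 40 to 79 reads 93.1% were.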

How the data were processed

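The deposited read files give the position and strand of reads of 36 bp aligned to mm9, and the deposited peak lists give a score per peak of 10 times the -log10 p-value, calculated by the authors with MACS, per the deposited column description. Per the file headers, PU.1 peaks were called against a library named random, p300 peaks against one named naked and H3K4me1 peaks against input. The untreated PU.1 list carries a header naming LPS and was used under its sample's label. Unmarked sites in that list only held 11.1 untreated and 6.04 LPS PU.1 reads per site within 250 bp of the centre. Those in the LPS list only held 5.23 untreated and 11.2 LPS reads. p300 reads of both replicates were merged for the authors' peak calls, per the series' design text. The aligner and the MACS version are not given in the sources used here.

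From these files PU.1 peaks of both lists were merged into sites, and reads with the same start and strand were counted once, and 5' ends were moved 100 bp downstream. Libraries were scaled to their distinct reads. Exact 95% intervals of ratios treat the sum of both counts as given, and shares carry exact (Clopper-Pearson) intervals. PCR duplicates were not resolved by molecular identifiers, so these intervals cover counting error only. No test across libraries was made. Named sites were the 5 strongest above input, the 3 with most input, the 3 LPS to untreated ratios with the highest lower bound and the 3 with the lowest upper bound, the 3 with most p300 at low input, and those on either side of the rule's limits. The isolated, H3K4me1-free and X sites, the runs and the X comparison were chosen after their values were seen. Overlap and interval code was tested on simulated data. Python 3.11.15, numpy 2.4.6, pandas 2.3.3, scipy 1.17.1 and matplotlib 3.10.9 were used. The members and comparisons were chosen with earlier results of these data known. Gene annotation and genome sequence of mm9 were not used here, so sites carry coordinates as the files give them, without genes or motifs.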

Additional observations from a re-analysis of the deposited data

Results flagged for a closer look

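The comparisons left out PU.1 peaks that lie on other sequences than chromosomes 1 to 19 and X. Of the untreated PU.1 peaks there, 37 met the same rule. PU.1 reads in them exceeded input after scaling, with 1111 untreated reads (1.34-fold, exact 95% interval 1.23 to 1.47) and 1095 LPS reads (1.27-fold, 1.16 to 1.39) against 859 input reads. Scaling to reads outside peaks multiplies both ratios by more than 2. At members, within 250 bp of the centre, PU.1 was 9.09-fold (untreated) and 8.845-fold (LPS) over input under the first scaling.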

How the results depend on the processing

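The number of unmarked stable sites was 25441. It became 12500 with PU.1 scores of at least 100 in both lists, and from 20680 to 33809 under the other 4 alternatives, within 1.5 times. The unmarked share on X stayed above that of the autosomes in all 5 (57.4% to 83.2% against 34.1% to 57.0%). One of the 5, overlap judged within 250 bp of the centre, was chosen after seeing the data. The pooled PU.1 ratio of LPS to untreated was 0.981 with all reads kept and 0.908 when scaled to reads outside peaks. Members beyond 2-fold numbered 39 higher and 8 lower with all reads kept, 13 and 6 when scaled to reads outside peaks, and 1 lower within 250 bp of the centre. The pooled H3K4me1 ratio to input within 1 kb was 1.42. It was 1.44 within 500 bp, 1.35 within 2 kb, 1.40 with all reads kept, 1.21 for sites with no H3K4me1 or p300 peak within 1 kb and 3.07 when scaled to reads outside peaks. This last scaling raises any library with many reads in peaks. The pooled p300 ratio to input was 1.01 untreated and 1.03 after LPS. Leaving out 1 replicate gave 0.778 to 1.27 untreated and 0.898 to 1.16 after LPS, on both sides of 1. All reads kept gave 1.04 and 1.05, and reads outside peaks 1.05 and 1.07. H3K4me1 peaks lay on each side of 2.59% of members within 1 kb and of 9.08% within 5 kb. PU.1 was not above input at 21.95% of members within 250 bp of the centre and at 0.676% when scaled to reads outside peaks, and H3K4me1 was above input at 50.1% in place of 18.9%. Both shares with that scaling were added after seeing the data. Motif and gene start alternatives were not run, as mm9 sequence and annotation were not used here. Of the 6 sites named for their PU.1 ratio, all kept their direction under the 4 alternatives, and the 3 rising ones and chrX:53669438 kept their call. The site chr10:99622382 lost its call with all reads kept (0.331) and within 250 bp of the centre (0.286), and chr6:89058366 gained one with all reads kept (0.1995) and when scaled to reads outside peaks (0.224).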
